A study of Mus musculus with 24 samples.

Results

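The genes described here are 36 genes of the cell cycle and of DNA replication, chosen by name from the 55421 genes of the count table. They were read as 3 groups: 12 genes of G1 and the switch from G1 to S phase, 10 genes of DNA replication, and 14 genes of G2 and mitosis. RNA-seq was performed on polyA RNA of hepatocytes, the parenchymal cells of the liver, isolated by perfusion from 24 male mice, 6 in each of 4 groups. The labels give the young mice as C57BL/6N of 6 months and the old mice as C57BL/6J of 24 months, whereas the study's text gives C57BL/6 for both and other ages, so age cannot be told apart from substrain. Mice of the YHFD (young) and OHFD (old) groups ate a high-fat diet with 60% of energy from fat, and those of the YND and OND groups ate a normal diet, for 9 weeks in all groups. The labels name no engineered allele and no drug in any group. The normal diet was a Teklad chow per the labels, whereas the study's text names a Test Diet formula from the maker of the high-fat diet.

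A cell that leaves rest makes D-type cyclins, which with CDK4 and CDK6 phosphorylate the retinoblastoma protein and free E2F factors, and inhibitors such as p27 (Cdkn1b) and p18 (Cdkn2c) oppose this step. The MCM helicase then opens replication origins, PCNA holds polymerases on the DNA, and B-type cyclins with CDK1, Aurora kinases, PLK1 and the CDC20-bound anaphase-promoting complex carry the cell through mitosis. Hepatocytes of the adult liver rarely divide, many are polyploid, and they re-enter the cycle together when liver mass is lost.

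Of the 36 genes, 35 had a mean of at least 0.5 CPM (counts scaled to a common library total) over the 24 mice, and 31 had at least 1. Levels here are CPM scaled by TMM, a factor that corrects library totals for composition, and log2 CPM carries a prior count of 2. Bub1, a spindle checkpoint kinase, was under the minimum with a mean of 0.23 CPM and 0 counts in 8 mice. Aurkb, the kinase of chromosome alignment, was just over it at 0.502. With plain library totals Aurkb was at 0.497 and 34 genes passed in place of 35. The same 35 genes passed the count filter and were tested among 13583 genes. The total counted per mouse ran from 9200332 to 22185069, and the lowest totals were those of the old HFD mice. In each group 3 mice came from batch 1 and 3 from batch 2 of the labels, which do not say what a batch is, except old ND with 2 and 4.

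Albumin (Alb) stood between 29008 and 128235 CPM in all mice, and marker genes of other liver cells were also present and differed between mice. The sum of 8 Kupffer cell and macrophage markers was 451 to 1139 CPM in 4 mice, namely old ND mice 3 and 4 and old HFD mice 4 and 6, and 1.34 to 181 CPM in the other 20. The 4 mice were picked by this sum, so the higher medians of all 8 macrophage genes in them follow largely from that choice. Every gene of the lists for leukocytes (6), T cells (8), B and plasma cells (6), sinusoidal endothelial cells (8), stellate cells (6) and cholangiocytes (5) also had a higher median there. So did 4 of 6 erythroid and 2 of 8 hepatocyte genes, and the summed leukocyte markers were 82.3 to 146 CPM in the 4 mice against 0.568 to 29 in the rest. The defining T cell gene Cd3e was at 0 counts in 9 mice and the B cell gene Cd79a in 11, including every young ND mouse. All 4 mice are of batch 2, and most results that rest on them are given with and without them, a choice made after seeing the data. In a bulk sample fewer cells of a type and less RNA per cell cannot be told apart.

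Because the genes of replication and of mitosis are known to be controlled through different promoter elements, their promoter sequences are shown first. RefSeq promoters (GRCm38.p6, from 250 bases before to 50 after the start) matched 28 of the 36 genes with 31 starts, and the 8 others are Ccnd1, Ccnd2, Ccne2, Rb1, Mcm4, Ccna2, Aurkb and Tpx2. They were searched on both strands for the CHR element of mitotic genes (TTTGAA), the CCAAT box, and E2F-type letters (TTTGGCGC, TTTCGCGC or TTTCCCGC), and overlapping matches were each counted. CHR letters were in 8 of 11 mitosis promoters (72.7%), 1 of 10 replication promoters (10%) and 0 of 10 G1 promoters, against 17.9% of all 32851 promoters. CCAAT letters were in 90.9% of mitosis and 90% of replication promoters, 40% of G1 promoters and 37.4% of all. E2F-type letters were in 4 of 10 replication promoters (40%), 9.09% of mitosis and 10% of G1 promoters, against 1.84% of all. These are matches of letters and describe the sequences, not binding.

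Windows of 150 bases before to 30 after the start are printed for 4 mitosis genes that hold both elements, with the letters of any searched element in capitals. They lie at chr9:70421525-70421704 (Ccnb2, minus strand), chr10:69352883-69353062 (Cdk1, minus), chr4:118437314-118437493 (Cdc20, minus) and chr11:99024160-99024339 (Top2a, minus).
Ccnb2: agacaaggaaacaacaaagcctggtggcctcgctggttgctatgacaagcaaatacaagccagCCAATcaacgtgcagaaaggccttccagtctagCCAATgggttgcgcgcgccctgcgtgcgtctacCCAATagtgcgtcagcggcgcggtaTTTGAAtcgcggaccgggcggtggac
Cdk1: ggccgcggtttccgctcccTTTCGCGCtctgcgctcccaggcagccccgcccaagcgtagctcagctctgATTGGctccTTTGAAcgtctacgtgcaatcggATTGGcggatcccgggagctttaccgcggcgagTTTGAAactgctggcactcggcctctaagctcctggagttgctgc
Cdc20: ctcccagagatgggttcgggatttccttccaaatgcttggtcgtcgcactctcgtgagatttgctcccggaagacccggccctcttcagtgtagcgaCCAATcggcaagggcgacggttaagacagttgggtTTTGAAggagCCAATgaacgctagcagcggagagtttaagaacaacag
Top2a: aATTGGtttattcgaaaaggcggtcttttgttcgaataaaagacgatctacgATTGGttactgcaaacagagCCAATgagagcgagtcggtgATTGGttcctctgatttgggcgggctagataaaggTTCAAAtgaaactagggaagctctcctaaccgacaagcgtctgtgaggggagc
For the replication genes, 2 MCM promoters with E2F-type letters are shown beside Mcm2, the replication gene called between old ND and young ND, which held no E2F-type letters in this window. They lie at chr1:20820283-20820462 (Mcm3, minus strand), chr1:128359676-128359855 (Mcm6, minus) and chr6:88898751-88898930 (Mcm2, minus).
Mcm3: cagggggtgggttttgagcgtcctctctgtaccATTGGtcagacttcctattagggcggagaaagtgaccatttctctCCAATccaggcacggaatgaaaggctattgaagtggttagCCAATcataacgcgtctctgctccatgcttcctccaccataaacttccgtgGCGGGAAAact
Mcm6: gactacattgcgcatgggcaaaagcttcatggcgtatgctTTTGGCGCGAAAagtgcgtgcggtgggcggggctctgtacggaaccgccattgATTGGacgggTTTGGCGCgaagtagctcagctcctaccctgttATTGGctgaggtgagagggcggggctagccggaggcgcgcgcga
Mcm2: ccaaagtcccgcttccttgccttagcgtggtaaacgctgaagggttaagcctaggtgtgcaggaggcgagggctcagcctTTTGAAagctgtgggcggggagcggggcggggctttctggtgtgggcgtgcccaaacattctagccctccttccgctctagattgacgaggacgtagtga
In Mcm6 the letters at 110 and 106 bases before the start overlap, and the other match lies 47 bases before it. In the Cdk1 window CHR letters stood 71 and 15 bases before the start. The Mcm2 window held CHR letters 70 bases before the start, and CCAAT letters of Mcm2 lay outside the window.

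Compared per kilobase of exon (gene models of GENCODE vM21), the 11 highest of the 36 genes were G1 or replication genes. Pcna, the polymerase clamp, was highest with a median over mice of 9.28 CPM per kilobase, followed by Cdk4 at 7.01, Cdkn1b at 4.17 and Ccnd1 at 3.46. The lowest were Bub1 at 0.0317, Aurkb at 0.14, Tpx2, a spindle assembly factor, at 0.159, and Ccnb1 at 0.161. The highest mitosis gene was Aurka, the centrosomal Aurora kinase, at 1.29, in position 12 of 36. Neighbours in this order overlap widely over mice: Pcna ran from 4.31 to 12.6 and Cdk4 from 5.46 to 11.3.

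The mitosis genes differed more between mice of one group than the groups differed from each other. Their summed level was 10.3 to 41.3 CPM in young ND (median 16), 10.8 to 47.1 in young HFD (median 21.9), 11 to 53.1 in old ND (median 22.6), and in old HFD 12.6 to 34.6 with a median of 22.6. Every group thus had a mouse at 12.6 CPM or less and a mouse at 34.6 CPM or more, and the 4 ranges overlap. The replication sum ran from 64.2 to 79.7 CPM in young ND, 57 to 104 in young HFD, 59.1 to 110 in old ND and 50.5 to 97.2 in old HFD. The G1 sum ran from 116 to 149 CPM in young ND, 129 to 166 in young HFD, 122 to 191 in old ND and 97.5 to 150 in old HFD. Over all mice the highest sum was 5.15 times the lowest for mitosis, 2.18 times for replication and 1.96 times for G1, as the plot of summed levels by group shows.

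**Figure D1:**
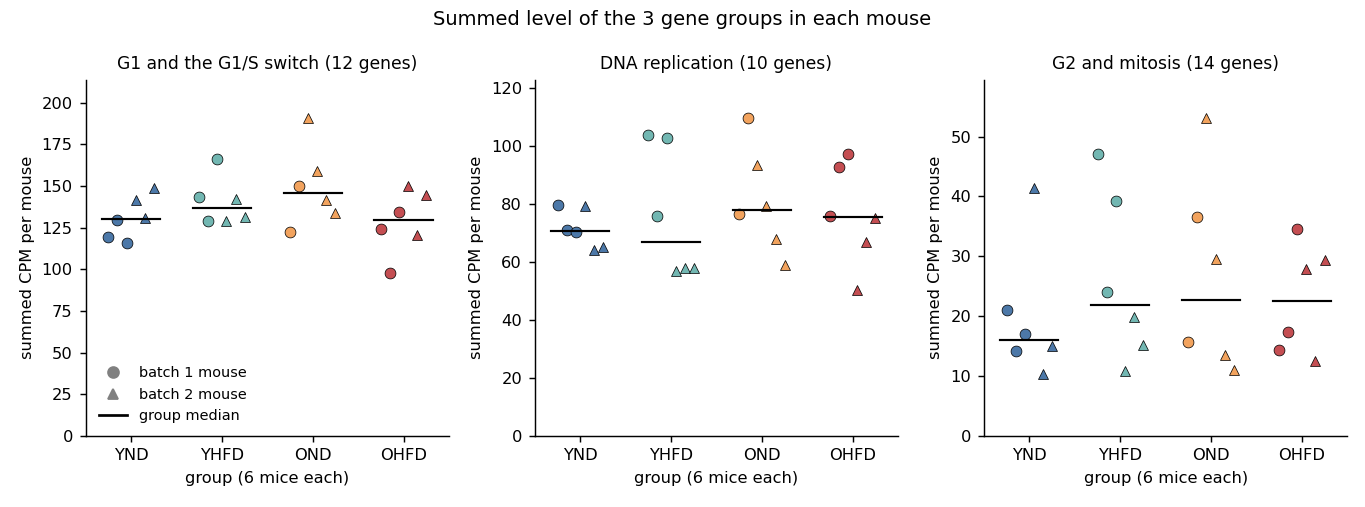
Summed CPM of the G1, replication and mitosis genes (y axis, from 0) for each of the 24 mice by group (x axis); circles are batch 1 mice, triangles batch 2 mice and bars group medians. The mitosis sum spans 10.3 to 53.1 CPM with every group holding low and high mice, and the replication sum of young HFD splits by batch.

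Expressed per gene, the SD of log2 CPM within groups had a median of 1.17 over the 13 mitosis genes tested, 0.47 over replication genes and 0.37 over G1 genes, against 0.39 over all tested genes. Low genes vary more, so a nearer comparison is with genes of a mean of 0.5 to 5 CPM. There the median SD was 1.17 for mitosis genes, 0.83 for all 4256 tested genes, 0.58 for 5 replication genes and 0.61 for 4 G1 genes. Levels within this range still differed, with means of 0.502 to 3.73 CPM for mitosis genes and 2.81 to 4.995 CPM for the replication genes. The steadiest members were Cdkn1b, the p27 inhibitor, with an SD of 0.17, and Cdk4, the partner of D-type cyclins, with 0.22. The least steady was Cdc20, the anaphase activator, with 1.62, from 0 CPM in old HFD mouse 2 to 6.84 CPM in old ND mouse 3.

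The mice with high mitosis genes were largely the same from gene to gene. Old ND mouse 3 was among the 6 highest of 24 mice for 13 of 14 mitosis genes, young ND mouse 4 and young HFD mouse 1 for 11 each, young HFD mouse 3 for 10 and old ND mouse 2 for 9. Young ND mouse 5 was among the 6 lowest for 12, young HFD mouse 4 for 11 and old ND mouse 6 for 10. These mice belong to 3 groups and both batches. For Mki67, the proliferation antigen Ki-67, levels ran from 0.917 to 7.09 CPM in young ND (median 1.92), 1.4 to 9.54 in young HFD (median 2.96), 0.49 to 8.58 in old ND (median 4.12), and in old HFD 0.429 to 6.12 with a median of 2.77. Top2a, the topoisomerase that untangles sister chromosomes, ran from 0.745 to 4.55, 0.89 to 6.26, 0.245 to 7.38 and 0.429 to 3.95 CPM in the same order. In both genes the ranges of all 4 groups overlap. The 4 mice with the highest macrophage markers took 2 of the 6 highest places for Mki67 and 1 for Top2a, and between 1 and 3 for each of the 14 mitosis genes, with 3 for Bub1, Cdk1 and Cenpa. Young HFD mice 1 and 3, with mitosis sums of 47.1 and 39.3 CPM, had macrophage marker sums of 103 and 28.9 CPM.

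**Figure D2:**
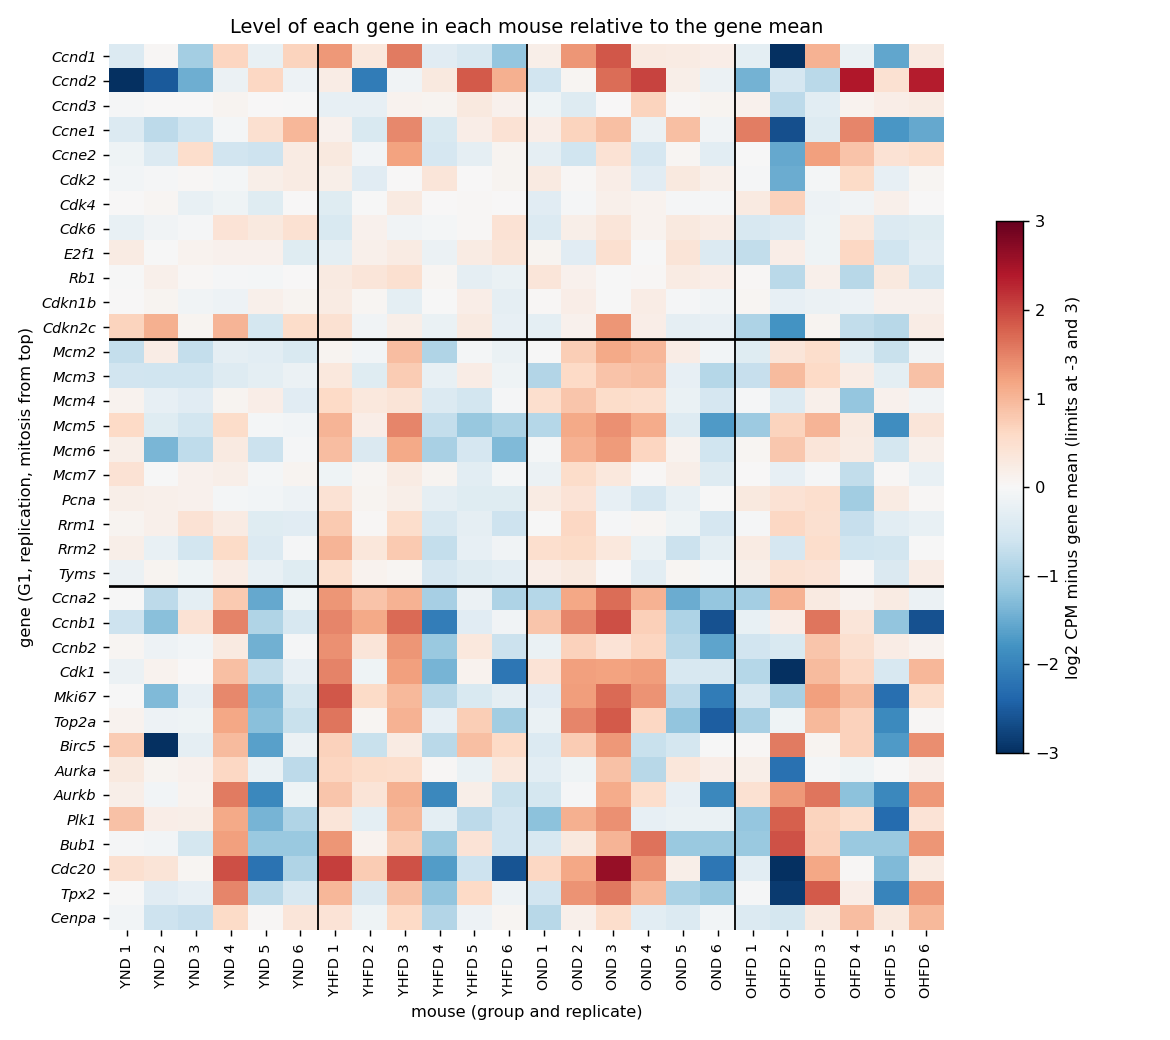
Log2 CPM of each of the 36 genes (rows, with G1, replication and mitosis genes from top to bottom) in each mouse (columns, 6 per group), less the mean of the gene over the 24 mice; red is above and blue below the mean. Mitosis genes are red together in old ND mouse 3, young ND mouse 4 and young HFD mice 1 and 3, while most G1 rows are pale.

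The remaining mitosis genes showed the same wide ranges within each group. Ccnb1, cyclin B1, the partner of CDK1, ran over 0.201 to 2.06 CPM in young ND, 0.056 to 2.43 in young HFD, 0 to 2.88 in old ND and 0 to 2.25 in old HFD, with medians of 0.403, 1.09, 1.21 and 0.657. For Ccna2, cyclin A2 of S and G2 phase, the medians in the same order were 1.06, 1.73, 1.67 and 1.42 CPM, within ranges of 0.344 to 2.22, 0.56 to 3.33, 0.357 to 4.23 and 0.546 to 2.69 CPM. For Birc5, survivin, of the chromosomal passenger complex, the medians in the same order were 0.826, 1.36, 0.843 and 1.35 CPM, within ranges of 0 to 2.01, 0.504 to 1.94, 0.572 to 2.61 and 0.215 to 3.15 CPM. No group stood apart in these 3 genes. For Cenpa, the histone H3 variant of centromeres, the medians in the same order were 3.43, 3.39, 3.04 and 4.28 CPM, within ranges of 2.12 to 5.24, 1.85 to 5.36, 1.91 to 5.05 and 2.38 to 6.98 CPM. Cenpa had the smallest SD within groups of the 13 tested mitosis genes, 0.54 on the log2 scale.

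The replication genes were steadier, and the clamp Pcna and the enzyme Rrm1 were mostly higher in batch 1 mice. Pcna, which was the highest member per kilobase, ran over 19 to 24 CPM in young ND, 16.5 to 28.7 in young HFD, 15 to 28.3 in old ND and 10.3 to 30.2 in old HFD, with medians of 21.8, 20.3, 19.7 and 25.7. All 11 batch 1 mice were at 22.7 to 30.2 CPM of Pcna and the 13 batch 2 mice at 10.3 to 25.2 CPM, with the lowest value in old HFD mouse 4. For Rrm1 the batches held 8.81 to 15.7 and 5.61 to 10.7 CPM. For Rrm2, the small subunit of ribonucleotide reductase, the medians in the same order were 4.55, 5.45, 5.26 and 4.18 CPM, within ranges of 3.31 to 7.46, 2.97 to 10.2, 3.15 to 7.4 and 3.24 to 7.17 CPM. For Tyms, thymidylate synthase, which makes dTMP, the medians in the same order were 5.76, 5.91, 6.59 and 7.4 CPM, within ranges of 4.98 to 7.46, 4.48 to 9.19, 5.15 to 7.82 and 4.72 to 8.91 CPM. In these 3 enzymes of nucleotide supply the ranges of the 4 groups overlap.

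The helicase subunits Mcm2 to Mcm7 had overlapping ranges in the 4 groups as well. For Mcm4, a core subunit, the medians in the same order were 4, 4.73, 6.02 and 4.01 CPM, within ranges of 3.31 to 4.87, 2.85 to 6.43, 2.94 to 7.61 and 1.82 to 4.67 CPM. For Mcm5, another subunit, and the least steady of the 10 replication genes, the medians in the same order were 2.16, 2, 3.39 and 2.86 CPM, within ranges of 1.52 to 3.5, 0.97 to 6.54, 0.612 to 6.13 and 0.537 to 4.75 CPM. For Mcm6, shown above with its promoter, the medians in the same order were 3.52, 3.13, 5.83 and 5.05 CPM, within ranges of 1.61 to 5.35, 1.66 to 9.81, 2.88 to 10.9 and 3 to 7.84 CPM.

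Old HFD mouse 2 stood apart from its group in several genes. It had 0 counts of Cdk1, Cdc20, Tpx2 and Ccne1, which at its depth allows up to 0.23 CPM each, and 0.615 CPM of Ccnd1 where the other old HFD mice had 4.72 to 29.6 CPM. Yet it had the highest Plk1 of all mice, 2.07 CPM, and the highest Cdk4, 36.9 CPM. The mitosis genes of this mouse thus did not move together, and 5 of 14 were among the 6 highest and 6 among the 6 lowest.

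The comparison of young HFD with young ND asks what the diet did in young mice, and edgeR called no member while DESeq2 called Ccnd2. Mitosis genes had positive log2 fold changes in 11 of 13, with a median of 0.27, replication genes in 7 of 10, with a median of 0.11, and G1 genes in 9 of 12, with a median of 0.08, where the median of all tested genes was 0.01. By the quasi-likelihood test of edgeR, adjusted after Benjamini and Hochberg, 0 of 35 members had an adjusted p under 0.05, against 3.5% of all tested genes, and 1 had an unadjusted p under 0.05, against 21.2%. DESeq2 called 1 member, Ccnd2, against 8.59% of its genes, and limma on the FPKM values called 0 of the 27 members it could test, against 1.92%. Each batch alone gave another direction: the median of mitosis genes was 1.09 in batch 1 and -0.69 in batch 2, and that of replication genes 0.67 and -0.28. Leaving out 1 mouse moved the mitosis median from 0.11, without young HFD mouse 3, to 0.78, without young ND mouse 4. It moved the replication median from 4.4e-05, without young HFD mouse 3, to 0.28, without young HFD mouse 5, and the G1 median from 0.02 to 0.15, without young HFD mouse 3 or 1. The replication sum shows this in the mice, with 76 to 104 CPM in the 3 batch 1 young HFD mice and 57 to 58.1 CPM in the 3 of batch 2. Young ND mice did not split so, with 70.5 to 79.7 and 64.2 to 79.3 CPM.

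In the comparison of old HFD with old ND, which asks the same in old mice, edgeR again called no member, and most estimates were below 0. Positive log2 fold changes were found for 10 of 35 members, with medians of -0.31 for mitosis, -0.30 for replication and -0.16 for G1 genes and -0.01 for all tested genes. Leaving out 1 mouse moved them: the mitosis median to -0.01 and the replication median to -0.15 without old ND mouse 3, and the G1 median to -0.04 without old HFD mouse 2 and to -0.33 without old HFD mouse 4. edgeR called 0 members at an adjusted p under 0.05, against 3.01% of all tested genes, and 6 at an unadjusted p, against 22%. DESeq2 called 0 of 33, against 8.8%, and limma 0 of 27, against 2.91%. The 6 estimates were below 0: Mcm2 was at -0.71 (SE 0.29), Mcm4 at -0.59, Mcm7 at -0.32, Rb1 at -0.43, Cdk6 at -0.30 and Cdkn2c at -0.81, and their adjusted p by edgeR lay between 0.149 and 0.204. The largest estimate belonged to Cdc20, -1.54, with an SE of 0.90. Old ND mouse 3 weighed on it: on leaving out this mouse Cdc20 was at -0.78 and Cdkn2c at -0.45. Mcm7 was at -0.20 on leaving out old ND mouse 2. With no count filter edgeR called Ccnd1 (-1.11) and Cdc20 (-1.56, adjusted p 0.0282), where the main fit gave adjusted p of 0.243 and 0.323. Without the 4 mice with high macrophage markers the median of mitosis genes was 0.10, that of replication genes -0.15 and that of G1 genes -0.29. Mcm2 was then at -0.37, Mcm4 at -0.35, Mcm7 at -0.18 and Cdc20 at -0.90.

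Between old ND and young ND, the comparison of age and substrain on normal diet, edgeR called Mcm2 alone, while DESeq2 called Mcm2 and Ccnd2 (adjusted p 0.0152 for Ccnd2), which is 2 of 36 members against 9.63% of all genes it tested, and limma called 0 of 27 against 1.3%. Mcm2, a subunit of the replicative helicase (ENSMUSG00000002870, GRCm38 chromosome 6, 88883474 to 88898780, minus strand, with no exon shared with another gene), stood at 1.99, 3.89, 1.99, 2.75, 2.64 and 2.41 CPM in the 6 young ND mice. It stood at 3.32, 5.64, 7.49, 6.78, 3.93 and 3.12 CPM in the 6 old ND mice. The groups overlap only through young ND mouse 2, which lay above old ND mice 1 and 6. Its log2 fold change was 1.01 (SE 0.29), with an adjusted p of 0.0316 by edgeR (Benjamini-Hochberg), 0.00941 by DESeq2 and 0.0822 by limma. Batch 1 alone gave 0.79 and batch 2 alone 1.03, and the edgeR call was lost on leaving out young ND mouse 1, 3, 5 or 6 or old ND mouse 2, 3 or 4. The highest Mcm2 levels were those of old ND mice 3 and 4. Without the 4 mice with high macrophage markers the log2 fold change was 0.61 with an adjusted p of 0.352 by edgeR. That fit holds 4 old ND mice and called 0.692% of all tested genes, against 8.5% with all mice. The part of the 4 mice in the Mcm2 result was not tested.

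The other replication genes pointed the same way, and few did so beyond their error. All 10 had a log2 fold change above 0, with a median of 0.31, and the subunits Mcm6 at 0.89 (SE 0.39) and Mcm3 at 0.69 (SE 0.33) passed an unadjusted but not an adjusted p. They were at 0.43 and 0.21 without the 4 mice with high macrophage markers, and Mcm6 was called by edgeR with no count filter (adjusted p 0.0239). Pcna was at 0.01 and Rrm1, the large subunit of ribonucleotide reductase, at 0.07, and Mcm7 was nearer to 0 than either. Mitosis genes had a median of 0.52 with 11 of 13 above 0 and SEs of 0.30 to 0.85, and Mki67 was at 0.74 (SE 0.64). Single mice moved both: without old ND mouse 3 the mitosis median was 0.08 and Mki67 was at 0.35, and without young ND mouse 4 they were at 1.11 and 1.56. The replication median was 0.17 and 0.46 without these mice, and 0.59 in batch 1 and 0.09 in batch 2. Without the 4 mice the mitosis median was -0.27 and the replication median 0.16, and Mki67 was at -0.42. edgeR called 1 of 35 members in this comparison, or 2.86%, against 8.5% of all tested genes, and 4 at an unadjusted p, against 22.2%.

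The comparison of old HFD with young ND spans both factors. Here edgeR called 3 G1 genes, with Ccnd2 higher and Cdkn2c and Cdk6 lower, of which Cdk6 was called by neither DESeq2 nor limma. That is 8.57% of the members tested, against 30.2% of all tested genes, and 5 members passed an unadjusted p, against 42.3%. DESeq2 called 3 of 36 members, against 27.3% of its genes, and limma 2 of 27, against 21.5%. None of the 10 replication and 13 mitosis genes was called by edgeR, although Mcm3 at 0.85 (SE 0.33) and Mcm7 at -0.32 (SE 0.15) passed the unadjusted p, and DESeq2 called Mcm3 with an adjusted p of 0.0325. The medians were 0.24 for mitosis, 0.08 for replication and -0.10 for G1 genes, where that of all tested genes was 0.04. The mitosis median was -0.22 without the 4 mice, 0.42 in batch 1 and -0.03 in batch 2, and it ran from -0.01 without old HFD mouse 3 to 0.73 without young ND mouse 4. The replication median ran from -0.01, without old HFD mouse 6, to 0.19, without young ND mouse 4, and the G1 median from -0.20 to 0.0028, without old HFD mouse 4 or 2.

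Ccnd2, cyclin D2 (ENSMUSG00000000184, chromosome 6, 127125162 to 127152193, minus strand), was at 0.236, 0.47, 1.13, 2.91, 5.16 and 3 CPM in the young ND mice and at 1.17, 2.3, 1.85, 18.1, 4.61 and 17.6 CPM in the old HFD mice. The lower 3 values of each group are batch 1 mice, and old HFD mice 4 and 6 stand above all others. The log2 fold change was 1.74 (SE 0.48) with an adjusted p of 0.0103 by edgeR with Benjamini-Hochberg adjustment. It was 1.52 in batch 1 and 1.88 in batch 2. Without batch in the model it was 1.82 and the edgeR call was lost (adjusted p 0.0787). Ccnd2 also had positive log2 fold changes of 1.53 in young HFD and 1.49 in old ND against young ND, with adjusted p of 0.0756 and 0.0552 by edgeR and 0.0175 and 0.0152 by DESeq2, and these 3 comparisons share the young ND mice. Old ND against young ND was also called by edgeR in a fit of the 2 groups alone (adjusted p 0.0488). With a replicate block in place of batch edgeR gave 1.95 (adjusted p 0.0414), but same-numbered mice are different animals. In that block old ND mouse 3, of batch 2, is set beside batch 1 mice, so batch is not held apart. All 11 batch 1 mice were at 0.236 to 3.91 CPM and all 13 batch 2 mice at 2.91 to 18.1 CPM.

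Ccnd2 was high in the mice with high markers of other liver cells. The 4 mice with the highest macrophage marker sums were among the 6 with the highest Ccnd2, and the 3 young ND mice with marker sums of 1.34 to 3.84 CPM had 0.236 to 1.13 CPM of Ccnd2. Without the 4 mice the log2 fold change between old HFD and young ND was 0.82 with an adjusted p of 0.259 by edgeR, and that between old ND and young ND was 0.996 with an adjusted p of 0.384. Between young HFD and young ND, which hold none of the 4 mice, it was then 1.45 with an adjusted p of 0.045 by edgeR. The part of other cell types in the Ccnd2 result was not tested. Of the exon bases of Ccnd2, 740 are shared with antisense genes, and whether counting used strand is not given in the sources used here.

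**Figure D3:**
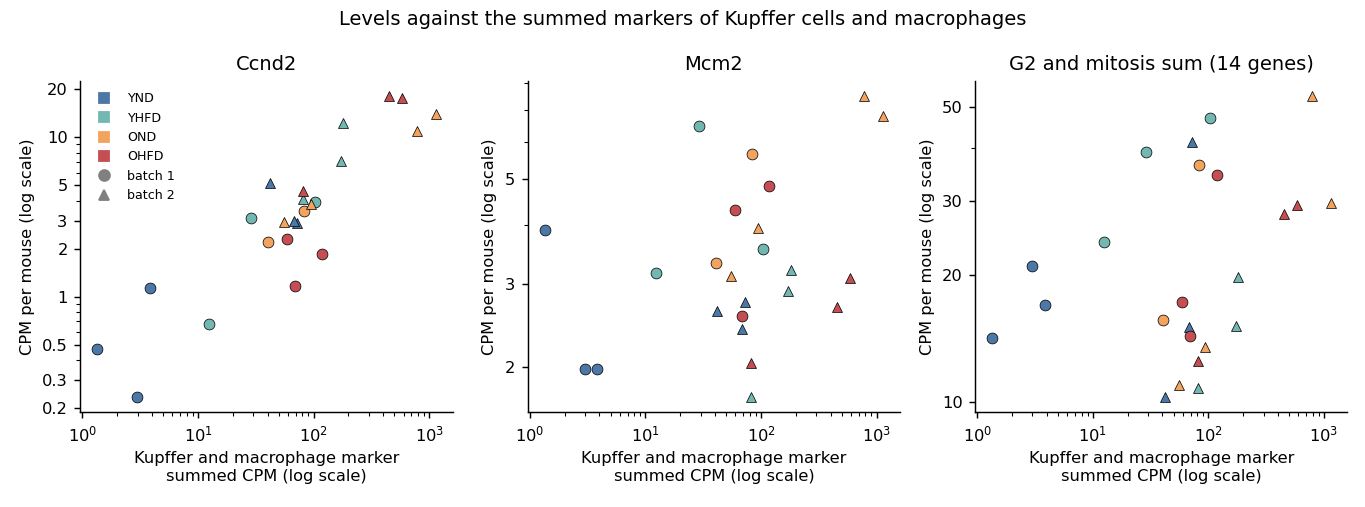
CPM of Ccnd2 and Mcm2 and the summed CPM of the 14 mitosis genes (y axes, log scale) against the summed CPM of 8 Kupffer cell and macrophage markers (x axis, log scale), 1 point per mouse, coloured by group and shaped by batch. Ccnd2 is highest in the mice with the highest marker sums, whereas mitosis sums of 34.6 CPM or more occur at marker sums from 28.9 to 781 CPM.

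Cdkn2c, the inhibitor p18 of CDK4 and CDK6 (ENSMUSG00000028551, chromosome 4, 109660876 to 109667189, minus strand), ran from 1.49 to 4.7 CPM in young ND (median 3.41), 1.84 to 3.05 in young HFD (median 2.26), 1.77 to 5.64 in old ND (median 2.12), and in old HFD 0.538 to 2.59 with a median of 1.22. The lowest value belongs to old HFD mouse 2, and the old HFD range overlaps the young ND range. Between old HFD and young ND it fell by 1.14 on the log2 scale (SE 0.37, adjusted p 0.0232 by edgeR with Benjamini-Hochberg adjustment), by 1.44 in batch 1 and 0.87 in batch 2. Without the 4 mice it fell by 1.42, with an adjusted p of 0.0144 by edgeR. Limma gave an adjusted p of 0.0175 and DESeq2 0.0168. The edgeR call was lost in the 2 groups alone (-1.10, adjusted p 0.0777) and on leaving out young ND mouse 2 or 4 or old HFD mouse 4.

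Cdk6, a kinase partner of D-type cyclins (ENSMUSG00000040274, chromosome 5, 3341485 to 3531008, plus strand), ran from 17.5 to 28.5 CPM in young ND (median 22.7) and from 14.7 to 25.6 in old HFD (median 15.7). Of the 6 old HFD mice, 4 lay below every young ND mouse, and old HFD mouse 4, at 25.6 CPM, lay within the upper part of the young ND range. It fell by 0.36 (SE 0.14), with an adjusted p of 0.0487 by edgeR, just inside the threshold, 0.0983 by DESeq2 and 0.319 by limma. The edgeR call was also lost with RLE scaling (0.0903), with no count filter (0.078), without batch (0.0981) and in the 2 groups alone (0.148). The call was lost on leaving out any 1 of 18 of the 24 mice, and without the 4 mice the log2 fold change was -0.41 with an adjusted p of 0.0627 by edgeR.

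Ccnd1, cyclin D1, which in liver rises when hepatocytes leave rest, ran from 0.615 to 52.3 CPM over the 24 mice and was called in no comparison. It ran from 6.89 to 22.7 CPM in young ND (median 13.3), 6.29 to 42.2 in young HFD (median 14.6), 16.2 to 52.3 in old ND (median 17), and in old HFD 0.615 to 29.6 with a median of 12. Old ND mouse 3, which was highest of all mice in 5 of 14 mitosis genes, was also highest here. The log2 fold change was 0.35 for young HFD and 0.81 for old ND against young ND, -1.08 for old HFD against old ND, -0.62 against young HFD and -0.28 against young ND, each with an SE of 0.53 to 0.55. With no count filter edgeR called Ccnd1 in old HFD against old ND (-1.11, adjusted p 5e-08) and old ND against young ND (0.79, adjusted p 1.1e-04). It also called it in old HFD against young HFD (-0.66, adjusted p 0.00749). With the filter the adjusted p by edgeR were 0.243, 0.397 and 0.529 in this order, on like estimates. The fit with no filter tested 32336 genes, against 13583, and called 587 for the interaction of age and diet, where the main fit called 0. Leaving out 1 mouse moved the 5 estimates to between 0.07 and 0.58, 0.40 and 1.03, -1.45 and -0.71, -1.11 and -0.33, and -0.63 and -0.04, through young HFD mouse 3, old ND mouse 3 and old HFD mice 2 and 3 among others. The first of the 5 turned from 1.57 in batch 1 to -1.01 in batch 2. Ccnd3, cyclin D3, stayed between 12.5 and 34.8 CPM in all mice with log2 fold changes of -0.07 to 0.01. Of the exon bases of Ccnd1, 1100 are shared with the gene LTO1 on the other strand.

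**Figure D4:**
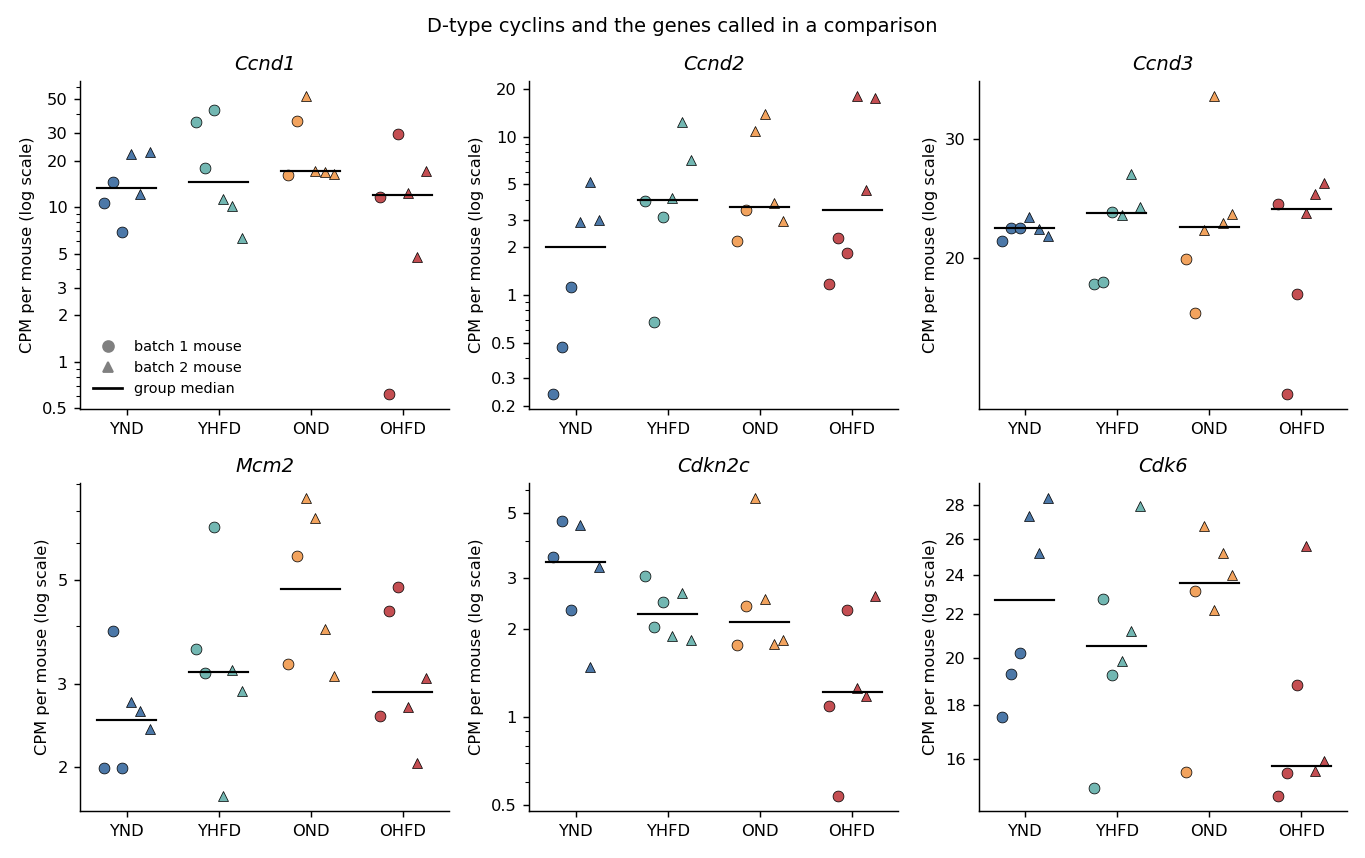
CPM per mouse (y axes, log scale) of the 3 D-type cyclins and of the other 3 genes called in a comparison, by group; circles are batch 1 and triangles batch 2 mice, and bars are group medians. The median of Ccnd2 is higher in batch 2 than in batch 1 mice of every group, Mcm2 is highest in old ND, and Cdkn2c and Cdk6 have their lowest medians in old HFD.

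The E-type cyclins and Cdk2, E2f1 and Rb1 were called by edgeR in no comparison. Ccne1, which with CDK2 drives entry into S phase, was at 2.18 CPM or less in every mouse, and Ccne2 at 3.86 CPM or less. Cdk2, E2f1, the activating E2F factor, and Rb1, the retinoblastoma protein, had medians of 10 to 11.8, 3.55 to 4.77 and 7.02 to 9.28 CPM in the 4 groups. Rb1 was lowest in old HFD mice 4 and 2, at 4.58 and 4.61 CPM, and it was called in old HFD against old ND only on leaving out old HFD mouse 5.

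For old HFD against young HFD, the comparison of age and substrain on the high-fat diet, edgeR called 0 of 35 members, against 2.24% of all tested genes, and 1 at an unadjusted p, against 21%. DESeq2 called 0, against 5.52%, and limma 0, against 1.36%. The 1 gene was Rb1, lower by a log2 fold change of -0.36 (SE 0.17). The medians were -0.20 for mitosis, -0.03 for replication and -0.14 for G1 genes, and for mitosis genes it was -0.85 in batch 1 and 0.71 in batch 2. The mitosis median was -0.52 without the 4 mice and ran from -0.40, without young HFD mouse 4, to 0.12, without young HFD mouse 1. Without the 4 mice the G1 median was -0.33. The replication median ran from -0.13, without old HFD mouse 3, to 0.15, without young HFD mouse 3, and the G1 median from -0.30 to 0.0043, without old HFD mouse 4 or 2.

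Whether the diet acted differently in old and young mice was tested as an interaction, the difference between both diet effects. edgeR called 0 of 35 members and 0% of all tested genes, with 3 members at an unadjusted p against 9.18%. DESeq2 called 0 members against 0.0217% of its genes, and limma 0 against 0%. The 3 were Mcm2 at -1.11 (SE 0.41), Mcm4, another helicase subunit, at -0.73 and Rb1 at -0.55, all with an adjusted p of 0.531 by edgeR. The median was -0.59 over mitosis genes, -0.47 over replication genes and -0.20 over G1 genes, against -0.03 over all tested genes. The mitosis median was -1.54 in batch 1 and 0.36 in batch 2, and the replication median -0.78 and 0.14, so both directions held in 1 batch only. Without the 4 mice the medians were -0.19 for mitosis, -0.11 for replication and -0.30 for G1 genes. Leaving out 1 mouse gave -0.96 (young ND mouse 4) to -0.40 (old ND mouse 3) for mitosis, -0.60 (young ND mouse 4) to -0.23 (young HFD mouse 3) for replication and -0.35 (old HFD mouse 4) to -0.13 (old ND mouse 3) for G1 genes.

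**Figure D5:**
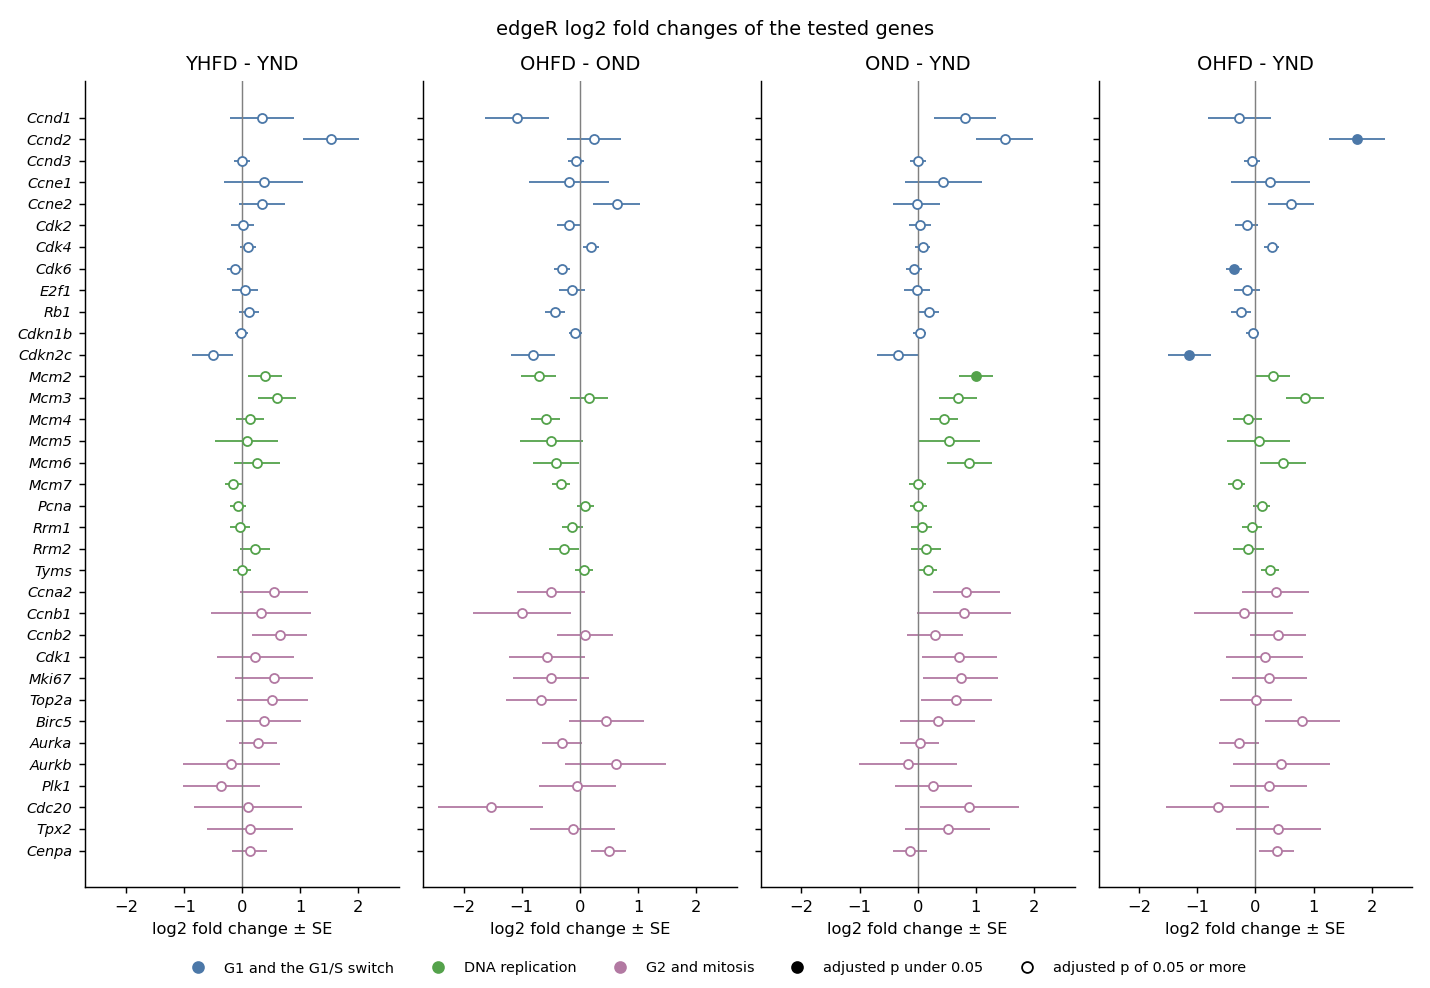
Log2 fold change with its SE (x axis) of each tested gene (y axis) in 4 comparisons of 6 mice with 6, from edgeR with group and batch; filled points have an adjusted p under 0.05. Filled points are Mcm2 in old ND against young ND and Ccnd2, Cdk6 and Cdkn2c in old HFD against young ND, and the mitosis genes have the widest bars.

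Other genes of the pathway were read from 3 lists that hold no member. They are a licensing list (origin licensing, replication fork and nucleotide supply, 41 genes tested), a spindle list (45 tested) and an inhibitor list (inhibitors, pocket proteins and checkpoints, 33 tested). In young HFD against young ND edgeR called 0 of them, against 3.5% of all tested genes, with 4, 3 and 6 at an unadjusted p, against 21.2%. DESeq2 called 0, 2 and 2, against 8.59%, and limma 0, against 1.92%. In old HFD against young HFD edgeR again called 0, against 2.24%, with 6, 3 and 7 at an unadjusted p, against 21%, while DESeq2 called 2, 1 and 1, against 5.52%, and limma 0, 0 and 1, against 1.36%. For the interaction edgeR, DESeq2 and limma called 0, against 0%, 0.0217% and 0%, with 1, 4 and 1 at an unadjusted p by edgeR, against 9.18%. In old HFD against old ND 1 of 41 licensing genes was called (2.44%, against 3.01% of all tested genes), Dnmt1, the methyltransferase that copies methylation at the fork. Dnmt1 ran from 8.08 to 16.4 CPM in old ND and from 3.07 to 8.2 in old HFD, which overlap by 1 mouse on each side, and it fell by 0.85 (SE 0.21, adjusted p 0.0285 by edgeR). Dnmt1 without the 4 mice was at -0.77, with an adjusted p of 0.07 by edgeR. The call was also lost in the 2 groups alone (adjusted p 0.301), by limma (0.055) and on leaving out old ND mouse 1, 2 or 4 or old HFD mouse 4. At an unadjusted p edgeR had 6, 4 and 2 genes of the lists, against 22%, while DESeq2 called 2, 1 and 0, against 8.8%, and limma 0, against 2.91%.

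In old ND against young ND the calls were Kif23, a kinesin of cytokinesis, among 45 spindle genes, and Btg2, an antiproliferative gene, among 33 inhibitor and checkpoint genes. That is 2.22% and 3.03%, below the 8.5% of all tested genes, and 0 of 41 licensing genes were called. At an unadjusted p edgeR had 6, 2 and 3 genes of the licensing, spindle and inhibitor lists, against 22.2% of all tested genes. DESeq2 called 3, 2 and 2 genes of the licensing, spindle and inhibitor lists, against 9.63%, and limma 0, 0 and 1, against 1.3%. Kif23 was at 0 to 0.133 CPM in young ND, 0.169 to 0.667 in young HFD, 0 to 2.93 in old ND and 0.312 to 2.76 in old HFD, so young ND lay at or near 0 counts and no fold is given. Kif23 passed the count filter only with the 4 mice included, where it is high, so its calls are no test of the groups and its values stand as a description. Btg2 ran from 12.9 to 32.2 CPM in young ND and from 33.5 to 214 in old ND without overlap, and its log2 fold change was 2.07 (SE 0.34, adjusted p 0.00184 by edgeR). Without the 4 mice Btg2 was at 1.90 with an adjusted p of 0.0123 by edgeR.

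Old HFD against young ND had the most calls in these lists. Of 41 licensing and fork genes 6 rose and 1 fell, with Pold3, a subunit of polymerase delta, at 0.57 and Rpa2, which coats single-stranded DNA, at 0.78. Pold3, Rpa2 and Dnmt1 were still called without the 4 mice, and Orc6, Rfc2, Lig1 and Chaf1a were not. The adjusted p of these last were 0.173, 0.0516, 0.145 and 0.0735 by edgeR. Their log2 fold changes went from 0.57, 0.40, 1.03 and 0.99 to 0.42, 0.43, 0.69 and 0.91. That fit holds 4 old HFD mice and called 19.2% of all tested genes. The Dnmt1 call was lost in the 2 groups alone (adjusted p 0.0729 by edgeR) and by limma (0.0622). That of Pold3 was lost with no count filter (0.072 by edgeR). Pold3 ran from 6.31 to 8.77 CPM in young ND and from 9.14 to 13 in old HFD without overlap. Of 45 spindle genes edgeR called 3: Kif23, whose call is no test as said above, Smc4 at 0.61 and securin (Pttg1) at 1.09, where old HFD mouse 2 had 116 CPM of Pttg1 and the others 21.8 to 31 CPM. Without old HFD mouse 2 the log2 fold change of Pttg1 was 0.51, and it was still called. Pttg1 was also called without the 4 mice, and the condensin gene Smc4 was not (log2 fold change 0.40, adjusted p 0.0918 by edgeR). Of 33 inhibitor and checkpoint genes 3 rose and 4 fell, with Btg2 at 2.03 and the factor E2f3 at -0.65. Btg2, E2f3 and E2f6 were still called without the 4 mice, and Cdkn1c, Rbl1, Rbl2 and Tfdp2 were not. The adjusted p of these last were 0.14, 0.323, 0.136 and 0.17 by edgeR. Their log2 fold changes went from 1.33, 1.11, -0.49 and -0.35 to 1.22, 0.58, -0.35 and -0.24. The E2f6 call was lost in the 2 groups alone (adjusted p 0.0618 by edgeR). The called shares of all 3 lists, 17.1%, 6.67% and 21.2%, were below the 30.2% of all tested genes. DESeq2 called 8, 5 and 8, against 27.3%, and limma 4, 1 and 3, against 21.5%.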

How the data were processed

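Counts of reads per gene were deposited by the authors, who aligned reads in 2 passes with STAR 2.7.3a to mm10 and counted with HTSeq 0.11.2; strand and the treatment of duplicates are not given in the sources used here. The authors also deposited FPKM adjusted for batch with ComBat, used here only with limma. The 36 genes and all lists were chosen with earlier results of these data known. Counts were analysed with edgeR 4.0.16 in R 4.3.3 on all 24 mice (TMM, filterByExpr, group and batch, quasi-likelihood test, Benjamini-Hochberg adjustment per comparison, threshold 0.05), after testing on simulated data. Alternatives were DESeq2 1.42.0 and limma 3.58.1 on log2(FPKM + 1) for genes with a mean FPKM of at least 0.1, which understates the change of low genes. Every column had a sample, so 0 were left out. P-values measure the spread between mice.

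All 36 genes were eligible to be named, as were the 2 called genes with the smallest adjusted p per other list and comparison, and 1 defining marker per cell type. Fold changes of members that were called in no comparison were chosen for print after their values were seen. So were the genes named for keeping or losing a call without the 4 mice with high macrophage markers. Mice with the same number are different animals: the deviations of same-numbered mice had a mean correlation of 0.203, and 0.0021 once batch means were removed, so numbers were not used as pairs. Limits from a count of 0 use 3 counts and cover counting error only.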

Additional observations from a re-analysis of the deposited data

Results flagged for a closer look

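In 7 of 156 groups of 6 mice tested, 1 mouse lay far from the other 5 by Dixon's criterion on log2 CPM, and chance flags about 1 in 20 groups. Among G1 genes, Cdk6 was lowest in old ND mouse 1 at 3.97 (next 4.48), and Cdkn2c was highest in old ND mouse 3 at 2.53 (next 1.41). Among replication genes, old HFD mouse 4 was lowest for both Mcm7, at 2.95 (next 3.43), and Pcna, at 3.39 (next 4.46). Among mitosis genes, Ccnb2 was lowest in young ND mouse 5 at -1.27 (next 0.0019), Aurka was lowest in old HFD mouse 2 at -0.59 (next 1.53), and Tpx2 was highest in young ND mouse 4 at 1.36 (next -0.10). Causes were not tested.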

How the results depend on the processing

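The number of members called moved with the settings, and the cause was not tested. The share of all tested genes called under the same setting stands in brackets. For young HFD against young ND, with 0 calls, DESeq2 gave 1 (8.59%), no count filter 1 (4.56%), the 2 groups alone 2 (18.6%), and leaving out the 4 mice with high macrophage markers 1 (7.9%). With no count filter, old HFD against old ND gave 2 (3.43%), old HFD against young HFD 1 (3.82%) and the interaction 2 (1.82%), where 0 were called. For old ND against young ND, with 1 call, no count filter gave 4 (6.35%), DESeq2 2 (9.63%) and the 2 groups alone 2 (10.8%). There limma (1.3%), the fit without batch (4.62%), batch 1 alone (0.687%), batch 2 alone (0.014%) and the fit without the 4 mice (0.692%) gave 0. For old HFD against young ND, with 3 calls, the fit without batch (22.4%), the 2 groups alone (17.4%) and the fit without the 4 mice (19.2%) gave 1, and batch 1 (6.79%) or batch 2 alone (4.33%) gave 0. With the replicate block in place of batch, 2 members were called for old ND against young ND (9.94%), and no other count moved by over 1.5 times.

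Leaving out 1 mouse at a time gave 0 to 1 calls for young HFD against young ND (1 without young HFD mouse 4), 0 to 1 for old HFD against old ND (1 without old HFD mouse 5), 0 to 2 for old ND against young ND, 1 to 4 for old HFD against young ND (1 without young ND mouse 2 or 4) and 0 to 0 for the other 2. Directions turned for Ccnd1 in batch 2 alone for young HFD against young ND (-1.01) and old HFD against young HFD (0.30), in batch 1 alone for old HFD against young ND (0.36), and for Mki67 in old ND against young ND without the 4 mice (-0.42). Many mitosis genes had few counts, which limits their precision.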
